A study of Homo sapiens with 6 samples.

Results

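The open chromatin sites listed in K562 cells carrying E669Q SLFN11 were set against those listed in K562 cells carrying wild-type SLFN11, both after 1000 nM camptothecin (CPT) for 4 h. Every distinct interval of the 2 peak lists was a member, and an interval was called shared when it overlapped an interval of the other list by at least 1 bp. Merged across both lists, the members formed 13125 regions, out of 17466 regions over all 6 libraries of the series. Of these, 4670 (35.6%) were in both lists, 843 (6.42%) in the wild-type list only and 7612 (58.0%) in the E669Q list only.

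SLFN11 is a Schlafen-family protein that is recruited to stressed replication forks through the single-strand binding protein RPA and stops replication there. Its helicase-like domain binds and hydrolyses ATP through Walker A and Walker B motifs. E669Q exchanges a glutamate of the Walker B motif for glutamine, a substitution used to remove ATPase activity while the protein is still made. Camptothecin traps topoisomerase I on DNA, which breaks replication forks, and SLFN11 is known for making tumour cells sensitive to it.

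K562 is an established human leukaemia line. The series held 3 modified K562 lines, which carried an empty vector, overexpressed wild-type SLFN11 or overexpressed SLFN11 with E669Q. Each line was given DMSO, with no time on its label, or 1000 nM CPT for 4 h. The assay was ATAC-seq, where a transposase cuts open DNA and tags its ends. The labels do not say whether each line was a single clone or how much of either protein it made. Each of the 6 groups was 1 library, so no difference below has a replicate check, the line and the library cannot be told apart, and no test between groups was made.

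The 2 CPT libraries differed in depth. Recovered from the deposited values, depth, with vector DMSO as the shallowest library at 1.00, was 1.09 in wild-type SLFN11 with CPT and 2.22 in E669Q with CPT. The vector library with CPT, at 1.09, had nearly the depth of the wild-type library and therefore served as a comparator at that depth. Wild-type SLFN11 with DMSO had a depth of 1.72 and E669Q with DMSO 1.33. Median summit pileups, the number of fragments over the highest point of an interval, were 8 to 11 in the 6 lists. All 95% intervals below are exact Clopper-Pearson intervals for shares and Newcombe intervals for differences of shares. They cover counting error only and treat intervals of the genome as independent.

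Most sites listed with wild-type SLFN11 under CPT were also listed with E669Q. The E669Q list held 4719 of the 5562 wild-type intervals (84.8%, 95% interval 83.9 to 85.8), and the other 843 were wild-type only (15.2% of the wild-type list). In the other direction, 4725 of 12337 E669Q intervals were in the wild-type list (38.3%, 37.4 to 39.2), and 7612 were E669Q only (61.7% of the E669Q list). The vector library gave nearly the same pair of values. The E669Q list held 4894 of 5806 vector intervals (84.3%, 83.3 to 85.2), and 4867 E669Q intervals were in the vector list (39.5%, 38.6 to 40.3). The interval for wild-type SLFN11 overlaps that for the vector in both directions, so the ATPase substitution and the SLFN11 transgene as such were not separated by these shares.

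Cutting the E669Q list to its 5562 strongest intervals, ranked by the authors' −log10 p, evened the 2 sides. At this matched length 3259 E669Q intervals were in the wild-type list (58.6%, 57.3 to 59.9) and 2303 were E669Q only (41.4%), while 2263 wild-type intervals were wild-type only (40.7%). The same cut E669Q list shared 3345 intervals with the whole vector list (60.1%, 58.8 to 61.4). Between the DMSO libraries of the same 2 lines, matched at the same length, 3506 E669Q intervals were shared (63.0%, 61.8 to 64.3), with 2056 E669Q only (37%) and 2072 wild-type only (37.3%). At this length E669Q and wild-type SLFN11 thus shared fewer intervals with CPT than with DMSO. The margin was outside counting error, with no replicate to set it against. The wild-type CPT side was its whole list, down to the calling limit. Under DMSO both sides were the strongest part of longer lists (8365 and 11651 intervals). The DMSO depths (1.33 and 1.72) were also closer together than the CPT depths, and the part of either in the difference was not tested. Directly, 57.5% of wild-type intervals were in the vector list after CPT and 55.2% of vector intervals in the wild-type list, although those libraries had almost equal depth.

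The wild-type list differed from the E669Q list mainly among its weak sites. All 250 strongest wild-type intervals were in the E669Q list (100%, 98.5 to 100), as were 248 of the next 250 (99.2%) and 490 of those ranked 501 to 1000 (98.0%). The share was 93.3% for ranks 1001 to 2000, 87.1% for ranks 2001 to 4000 and 67.7% (65.3 to 70.0) for ranks 4001 to 5562. The 250 strongest intervals of wild-type SLFN11 cells under CPT were therefore all listed with the ATPase substitution too. Of the 843 wild-type-only intervals, 505 came from ranks 4001 to 5562.

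The E669Q list did not mirror this at its top. Of its 250 strongest intervals, 218 were in the wild-type list (87.2%, 82.4 to 91.1), and the share went down to 78.4% for ranks 501 to 1000, 55.4% for ranks 2001 to 4000 and 17.5% (16.3 to 18.6) for ranks 8001 to 12337. Against the vector list the same rank classes gave 87.2%, 83.0%, 55.1% and 17.4%. Of the 32 intervals of the top 250 that were not in the wild-type list, 18 were under 150 bp wide. Narrow E669Q intervals were rarely shared: 294 of 2199 under 150 bp were in the wild-type list (13.4%, 12.0 to 14.9). The lists differed in their narrowest interval, which was 102 bp for E669Q and 128 bp for wild-type SLFN11. Narrower sites were thus listed with E669Q alone, and the part of this limit in the narrow absences was not tested.

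**Figure D1:**
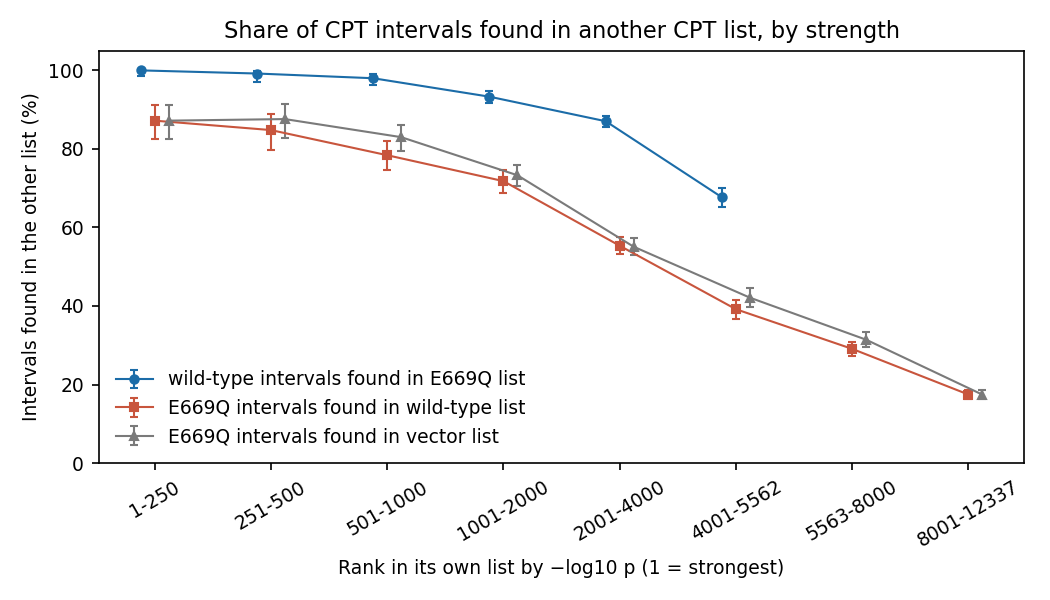
Share of CPT intervals found in another CPT list (y axis, %) by rank in their own list (x axis, 1 = strongest by −log10 p), for wild-type intervals in the E669Q list (blue), E669Q intervals in the wild-type list (red) and E669Q intervals in the vector list (grey), with exact 95% intervals. Wild-type intervals go from 100% at the top to 67.7% at the bottom, while the red and grey series run close together from 87.2% to 17.5% and 17.4%.

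When both lists were cut to the same number, agreement on which sites were strongest was moderate. The 250 strongest of each list shared 167 E669Q intervals (66.8%, 60.6 to 72.6), the 1000 strongest 451 (45.1%) and the 4000 strongest 2269 (56.7%). Of the 1000 strongest wild-type intervals, 544 were outside the E669Q top 1000, and 12 of these were missing from the E669Q list altogether. The whole E669Q list thus held 988 of the 1000 (98.8%). For E669Q 822 of the 1000 strongest (82.2%) were in the whole wild-type list, and of the 549 outside its top 1000, 178 were missing altogether. Among the 4000 strongest E669Q intervals, 1353 of the 1731 outside the wild-type top 4000 were missing. Over 3299 matched pairs of the 5562-interval lists, Spearman's rho between ranks was 0.41 across intervals, which are not replicates. The median change of rank was 1067 places. The part of low fragment counts and of unequal depth in these rank changes was not tested.

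The wild-type-only intervals were small. Their median width was 183 bp and their median summit pileup 6 fragments (4 to 20), against 254 bp and 9 fragments for wild-type intervals that were shared. Their median fold enrichment over local background, the authors' value at the summit, was 4.89 against 6.09, and their median −log10 p was 6.75 against 9.02. Several summits were listed in 0.356% of them and in 7.12% of the shared intervals. At their backgrounds, scaled to the deeper E669Q library, a median of 7 fragments would have been needed there for a call.

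The E669Q-only intervals included weak and strong sites. Their median width was 215 bp and their median pileup 10 fragments, with a maximum of 221, against 387 bp and 15 fragments for shared intervals of the E669Q list. The median fold enrichment was 5.67 against 6.92. Of the 7612, 1905 (25.0%) were under 150 bp, and 63 had a local background above 10 fragments, a level that none of the 843 wild-type-only intervals reached.

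Few shared calls rested on touching edges. Of the 4719 shared wild-type intervals, 4363 overlapped an E669Q interval by 100 bp or more, the median overlap was 213 bp, and 28 overlapped by 1 to 10 bp. Of the 843 wild-type-only intervals, 147 (17.4%) lay within 200 bp of an E669Q interval. For the E669Q-only intervals this was 230 of 7612 (3.02%). A rule of 50% reciprocal overlap lowered the shared part to 52.8% of the wild-type list, 23.8% of the E669Q list and 38.6% at matched length.

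The other 4 libraries, which had no part in choosing the sets, showed how often each set was seen elsewhere. Of the 843 wild-type-only intervals, 412 (48.9%, 45.4 to 52.3) were in the DMSO list of the same line and 197 (23.4%, 20.6 to 26.4) in the E669Q list with DMSO. The vector lists held 117 (13.9%) with DMSO and 145 (17.2%) with CPT. The shares of shared intervals were higher in each of these libraries, at 91.4%, 80.5%, 59.2% and 64.7% in the same order. The difference in strength between the sets, given above, moves with these shares, and its part in them was not tested.

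E669Q-only intervals had a different profile. The wild-type DMSO list held 3864 of the 7612 (50.8%, 49.6 to 51.9), more than the 2928 (38.5%) in the DMSO list of the E669Q line itself. That wild-type library was the deeper of the 2 DMSO libraries. In the vector lists 1502 (19.7%) and 1752 (23.0%) were found, with DMSO and CPT. So about as many E669Q-only sites as not were listed with wild-type SLFN11 under DMSO.

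**Figure D2:**
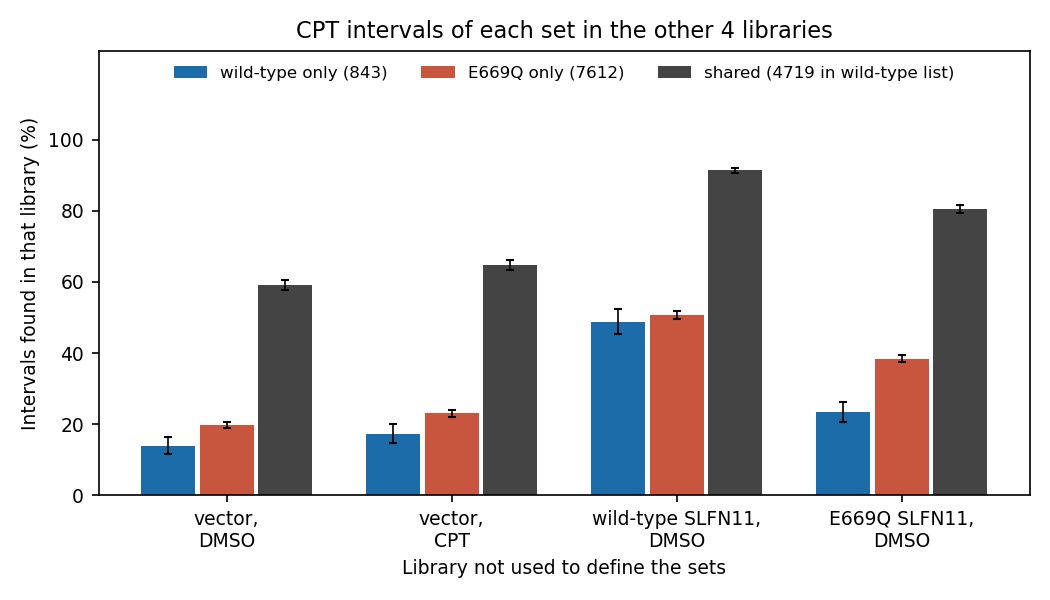
Share of the wild-type-only, E669Q-only and shared CPT intervals (bars, %, exact 95% intervals) found in each of the 4 libraries that did not define the sets. Shared intervals are highest everywhere, and the wild-type-only and E669Q-only bars are nearly level in the wild-type DMSO library, at 48.9% and 50.8%.

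Which sites need an intact ATPase domain can be asked of the lists only as sites present with wild-type SLFN11 and absent with E669Q in both treatments. They numbered 646 of the 843 wild-type-only intervals (76.6%, 73.6 to 79.4), in a list of 5562. Of them, 270 were also listed with wild-type SLFN11 under DMSO and 376 were in neither DMSO list of the SLFN11 lines. In both wild-type lists and none of the other 4 there were 186 intervals (22.1% of 843, 19.3 to 25.0), and 329 (39.0%) were in no other library at all. Of the 270, 84 were in at least 1 vector list, 22 of them in both, and so were also listed without any SLFN11 transgene. Of all 646, 131 were in at least 1 vector list. The 843 wild-type-only intervals had a median pileup of 6 fragments. At the lower bound of their counts, scaled for depth as set out below, 145 would still have been called in E669Q CPT. Absence of the others from that list is therefore weak evidence of a closed site.

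The mirrored group, absent with wild-type SLFN11 in both treatments, held 3748 of the 7612 E669Q-only intervals (49.2%, 48.1 to 50.4). In both E669Q lists and no other there were 624 (8.20%), and 2589 (34.0%) were in no other library. Of all 7612 E669Q-only intervals, 516 (6.78%) were in every list except wild-type CPT, and so outside the mirrored group. Of the 843 wild-type-only intervals, 21 (2.49%) were in every list except E669Q CPT. These counts rest on CPT lists of unequal length. The cut lists below even out the length but not the depth.

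Sites present with wild-type SLFN11 under DMSO and no longer listed after CPT were frequently listed with E669Q after CPT. Of 6937 such intervals, 3812 (55.0%, 53.8 to 56.1) were in the E669Q CPT list and 1731 (25.0%) in the shallower vector CPT list. Among the 2582 of them that E669Q also had with DMSO, 2095 (81.1%, 79.6 to 82.6) remained listed in E669Q after CPT. Among the 4355 that E669Q lacked with DMSO, the share was 39.4%. In the opposite arrangement, 1590 E669Q DMSO intervals were not listed after CPT, and 192 of them (12.1%, 10.5 to 13.8) were in the wild-type CPT list. Those 2 shares rest on E669Q CPT and wild-type CPT lists of unequal length.

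Sites listed with wild-type SLFN11 only after CPT had a lower share in the E669Q list than the rest of that list. Of 838 wild-type CPT intervals absent from the DMSO list of the same line, 407 (48.6%, 45.1 to 52.0) were in the E669Q CPT list, against 4312 of 4724 (91.3%, 90.4 to 92.1) of those also listed with DMSO. That DMSO library was the deeper of the line (1.72 against 1.09). The share found in the E669Q list also fell with rank alone, to 67.7% for ranks 4001 to 5562. The part of depth and strength in these shares was not tested.

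With the 4 SLFN11 lists held to 5562 intervals each, which is the whole wild-type CPT list, they merged into 9984 regions. All 4 held 2199 of these. Regions in a single list were most frequent for wild-type CPT (1128), followed by E669Q CPT (979), E669Q DMSO (919) and wild-type DMSO (910). Among regions in exactly 2 lists, the 2 E669Q lists shared 451 and the 2 wild-type lists 408, while the 2 CPT lists shared 288. Lists of the same line therefore had more regions to themselves than lists of the same treatment (288 with CPT, 371 with DMSO). Lists with neither in common had 352 (wild-type DMSO and E669Q CPT) and 294 (wild-type CPT and E669Q DMSO). The CPT pair was thus below both of these, and the DMSO pair above both.

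A region that the other 3 SLFN11 lists held was most often missing from wild-type CPT. At matched length 506 of 2705 such regions (18.7%, 17.3 to 20.2) were missing there, against 406 of 2605 (15.6%) from E669Q CPT, a difference of 3.12 percentage points (1.09 to 5.14). The wild-type DMSO list lacked 14.7% and the E669Q DMSO list 15.2%, which wild-type CPT exceeded by 4.04 (2.03 to 6.04) and 3.48 points (1.46 to 5.49). Without matching the lengths, the shares were 35.8% for wild-type CPT and 3.29% for E669Q CPT, so list length moved this contrast by far more than the matched difference. At matched length the wild-type CPT list was whole, down to its calling limit, while the others were the strongest part of longer lists. It also came from the shallowest SLFN11 library, with a depth of 1.09 against 1.33 to 2.22. The part of either in the matched difference was not tested.

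**Figure D3:**
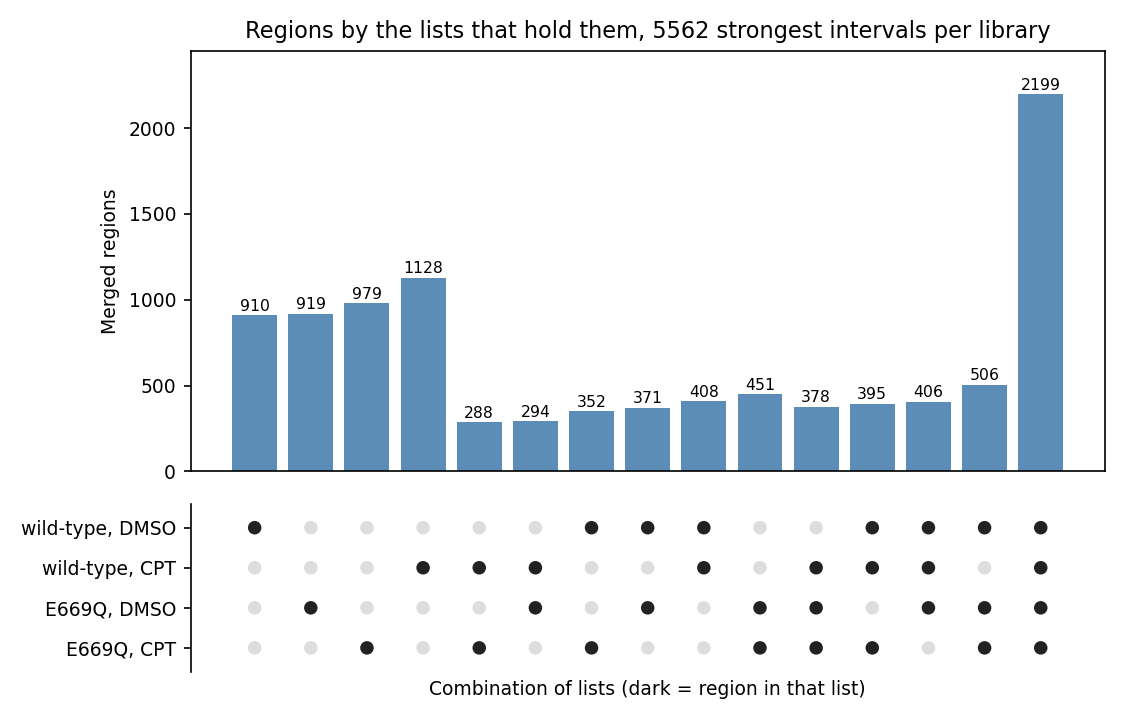
Merged regions (y axis, count) by the combination of the 4 SLFN11 lists that hold them (dark points), at 5562 intervals per list. This is the whole wild-type CPT list and the strongest part of the others, and depth is not evened. The 2199 regions in all 4 lists form the tallest bar, and wild-type CPT has the most regions to itself (1128) and is the list most often missing where the other 3 agree (506).

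Unshared sites under CPT were only in part the unshared sites under DMSO. Of the 2303 E669Q-only intervals at matched length, 457 (19.8%) were E669Q only under DMSO too, 360 (15.6%) were wild-type only there, 507 (22.0%) were in both DMSO lists and 979 (42.5%) in neither. Of the 2263 wild-type-only intervals, 432 (19.1%) were wild-type only under DMSO, 304 (13.4%) E669Q only, 399 (17.6%) in both and 1128 (49.8%) in neither. In each set the recurring direction outnumbered the opposite one, and most intervals did neither.

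Several wild-type-only sites were open in other lines as well. The strongest by −log10 p, among intervals of at least 150 bp, was chr6:169825361-169825924 (hg19), with a fold of 8.19 and 20 fragments in wild-type CPT. The site had 37 fragments in wild-type DMSO, 25 in vector CPT and 14 in vector DMSO, and was in neither E669Q list. It was thus a site of vector and wild-type cells alike that the E669Q lists lacked. The second, chr12:21654355-21654774, had a fold of 8.77 and 13 fragments and was in every library except E669Q CPT, with 8 fragments in E669Q DMSO.

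The next wild-type-only sites ranged more narrowly. The interval chrX:53449610-53449812 (fold 8.88, 12 fragments) was in the 2 wild-type lists and nowhere else, with 10 fragments under DMSO. The interval chr2:209616877-209617308 (fold 8.58, 10 fragments) was in both wild-type lists and vector CPT. In the wild-type CPT, wild-type DMSO and E669Q DMSO lists alone were chr11:62414026-62414209 (fold 8.02), chr19:12792112-12792465 (fold 8.15) and chr3:128399571-128399737 (fold 8.10). Their E669Q DMSO pileups were 6, 7 and 6 fragments, so 4 of the 8 strongest wild-type-only sites were listed with E669Q under DMSO.

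The fifth strongest, chr2:92281283-92281511 (fold 7.47, 16 fragments), was in wild-type CPT alone of all 6 libraries. It led the 5 strongest such intervals, of which 3 others were chr21:47621066-47621380 (fold 7.70, 9 fragments), chr19:12983860-12984287 (fold 7.38, 12 fragments) and chr10:27443320-27443497 (fold 7.44, 11 fragments). The last, on chromosome 8, had a fold of 7.29 and 11 fragments. The folds of these 5 sites thus lay between 7.29 and 7.70. Among intervals under 150 bp wide, the strongest wild-type-only pair was chr7:100550760-100550889 (fold 7.42, 9 fragments), in no other library, and chr5:110559922-110560058 (fold 7.12, 8 fragments), also in the DMSO lists of the vector and wild-type lines.

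Of the 8 E669Q-only intervals of at least 150 bp with the highest −log10 p, 7 were listed with wild-type SLFN11 under DMSO. The first, chr1:569825-570015, had a fold of 2.65 with a −log10 p of 953, and no whole pileup could be recovered for it. It was also in the DMSO lists of wild-type SLFN11 (fold 2.60) and E669Q (fold 2.63). The second, chr2:92275878-92276039, had a fold of 20.7 and 75 fragments, and 33 and 30 fragments in those same DMSO lists. The wild-type-only site chr2:92281283-92281511 lies in the same stretch of chromosome 2, so each list had an interval there that the other lacked. The lists were not filtered here for repeats or regions of recurrent high signal, so such regions were not told apart from open chromatin.

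Other strong E669Q-only sites were spread over 5 chromosomes. The interval chr11:77597513-77597668 had 48 fragments (fold 21.0), and 52 in wild-type DMSO. The intervals chr2:88124627-88124861 (115 fragments), chr2:133025518-133025914 (101), chr17:22252116-22252295 (102) and chr4:49516372-49517100 (77) had backgrounds of 16.5, 15.6, 19.2 and 11.1 fragments and folds of 5.10 to 6.64. All 4 were in wild-type DMSO. The first and last of them were also in vector DMSO, with folds of 41.3 and 5.90. Only chr14:19012513-19012983 (fold 16.2, 55 fragments) among the 8 was absent from wild-type DMSO, and it was in vector CPT with 12 fragments. Each of the 8 was thus also in a list of another line. Under 150 bp, the strongest E669Q-only pair, with a higher −log10 p than any of these 8, was chr11:10530435-10530566 (fold 11.2), in 4 libraries, and chr6:62284043-62284154 (fold 50.5), also in wild-type DMSO (fold 48.1). At 112 bp, the latter was narrower than any wild-type CPT interval, the narrowest of which was 128 bp.

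The 5 strongest sites that every library held except wild-type CPT had local backgrounds of 0.954 to 2.23 fragments in E669Q CPT. The strongest was chr7:126307843-126308455, with 38 fragments in E669Q CPT, 18 in E669Q DMSO, 19 in wild-type DMSO, 9 in vector CPT and 11 in vector DMSO. The site chr2:21451230-21451814 had 40, 24, 30, 13 and 18 fragments in the same order. A pileup of 7 and of 8 fragments, respectively, would have been called in wild-type CPT at its scaled background. Both sites were thus listed at 9 or more fragments in the equally shallow vector CPT library and not listed with wild-type SLFN11 after CPT, as the choice of these sites required.

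The other 3 sites of this kind were chr4:169931385-169931773, chr9:108210149-108210740 and chr10:98561343-98561534. They had 37, 35 and 27 fragments in E669Q CPT and 18, 15 and 11 in vector CPT. Wild-type DMSO had 25, 23 and 19.

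Depth limits which absences can be read. Scaling each E669Q summit pileup to the depth of the wild-type library, 54.8% of 12286 E669Q intervals with a recovered pileup would be expected in the wild-type list, and 38.1% were found. The ratio of found to expected was 0.695 (0.679 to 0.711). Against the vector CPT list, at almost the same depth, the ratio was 0.713 (0.697 to 0.729), and against E669Q DMSO and wild-type DMSO it was 0.777 and 0.762. The wild-type list thus held fewer E669Q sites than this scaling gives, and so did the vector list to nearly the same extent. A ratio below 1 also arose between the 2 treatments of the E669Q line, so it is no measure of the substitution by itself. Among the 580 intervals with an expected share of 99.7%, 493 were in the wild-type list (85.0%, 81.8 to 87.8).

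A stricter reading keeps intervals of at least 150 bp whose pileup, at its lower exact Poisson 95% bound and scaled to the other library's depth, would still have been called there. Of 881 such E669Q intervals, 138 were absent from the wild-type list (15.7%, 13.3 to 18.2). Of 2591 such wild-type intervals, 128 were absent from the E669Q list (4.94%, 4.14 to 5.85). With a depth ratio taken from the median pileups of shared sites (0.6 in place of 0.491) these became 217 of 1266 (17.1%) and 50 of 1780 (2.81%), so both counts depended on the ratio. Under either ratio the share absent was larger for E669Q intervals.

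The 138 E669Q intervals were also looked up in the libraries that did not define them. E669Q DMSO held 113 (81.9%, 74.4 to 87.9), wild-type DMSO 112 (81.2%, 73.6 to 87.3), vector CPT 81 (58.7%) and vector DMSO 65 (47.1%). For shared intervals of the E669Q list at matched length, the shares were higher in each, at 90.3%, 96.7%, 76.4% and 69.5% in the same order. Those shared intervals were not matched to the 138 for strength. Of the 138, 17 had a local background above 10 fragments, and without those the vector CPT share was 66.1% of 121. These intervals were thus mostly sites that the wild-type line was also listed with under DMSO.

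Where both lists held a site, its pileups moved together. Over 4671 shared pairs the median pileup was 9 fragments with wild-type SLFN11 and 15 with E669Q, and Pearson's r of the log2 pileups was 0.76 across intervals. The median ratio of E669Q to wild-type pileups was 1.67, below the depth ratio of 2.04, while the median ratio of local backgrounds was 2.1. The ratio was not the same at all strengths. Its median was 1.71 for the 2715 sites with 6 to 10 fragments in wild-type SLFN11, 1.5 for the 1445 sites with 11 to 20 and 1.75 for the 135 sites with 21 to 40. It was 2.39 for the 78 strongest, with 41 fragments or more, and 2.2 for the 298 weakest, with up to 5. The bulk of the shared sites thus lay below the depth ratio and both ends above it. Sites were classed by their wild-type pileup, which is itself part of the ratio, and both pileups had to pass a calling limit; the part of either in these medians was not tested.

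**Figure D4:**
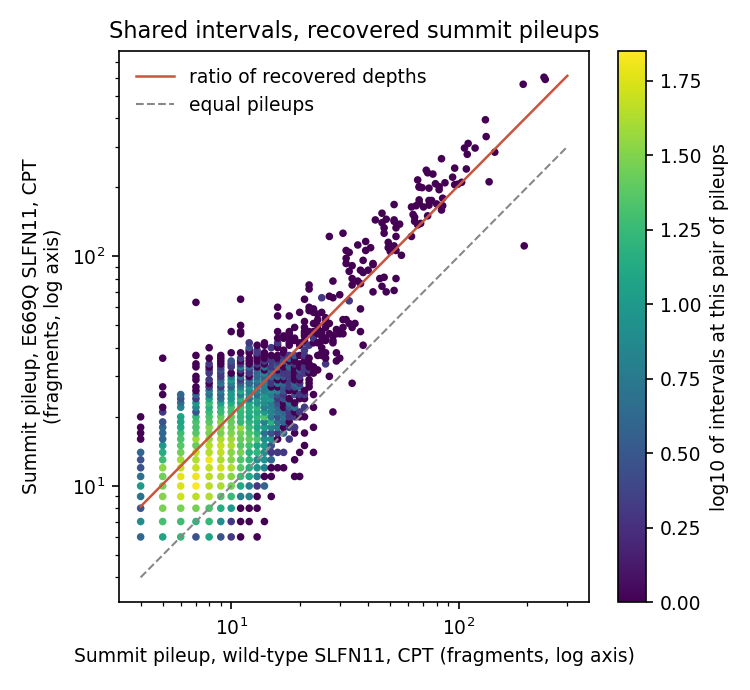
Recovered summit pileups of 4671 shared sites with wild-type SLFN11 (x axis, fragments) and E669Q SLFN11 (y axis, fragments), both after CPT and on log axes, with colour giving the log10 number of sites at each pair. Of the 78 sites above 40 fragments with wild-type SLFN11, 63 lie above the line of the depth ratio (2.04, red), while most sites of 6 to 40 fragments lie below it, towards equal pileups (dashed).

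The strongest shared sites were the same in all 6 libraries. The interval chr17:22020537-22020911 had a fold of 49.7 in E669Q CPT and 50.4 in wild-type CPT. The interval chr13:110076474-110076688 had folds of 37.0 and 37.9, and chr1:564677-565372 folds of 4.22 and 4.09. Across the 6 libraries the folds of the first ranged from 47.9 to 50.4. The background window takes in the site itself, which limits the fold that so dominant a site can reach, so these folds do not show whether its accessibility differed between libraries. Mitochondrial intervals were kept in the lists, and nuclear regions of recurrent high signal were not filtered out here. Whether these strongest sites are open chromatin was not tested.

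The largest rank changes between lists of matched length were in both directions. The interval chr19:18632933-18633413 ranked 382 in E669Q (33 fragments) and 5040 in wild-type SLFN11 (7 fragments), and had 14 fragments in E669Q DMSO, 22 in wild-type DMSO and 11 in vector CPT. The interval chr12:90102572-90103770 ranked 405 against 4984 (36 and 8 fragments), and chr1:231114186-231114955 ranked 680 against 5248 (25 and 6 fragments). The vector CPT library had 11, 10 and 11 fragments at these. The sites were picked for their low wild-type CPT rank, so a wild-type pileup below that of another library follows in part from the choice. Another site of this kind, on chromosome 8, ranked 579 against 5188.

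In the other direction, chr7:30544378-30544842 ranked 188 with wild-type SLFN11 (19 fragments) and 5443 with E669Q (13 fragments). The intervals chr14:73925269-73925587, chr19:36266183-36266729 and chr5:176074277-176074498 had 16, 14 and 16 fragments with wild-type SLFN11 and 14, 13 and 16 with E669Q, at 2.04 times the depth. The 4 sites had 16, 14, 9 and 19 fragments in E669Q DMSO, a library of lower depth than E669Q CPT. They were picked for their low E669Q CPT rank, so low E669Q CPT pileups follow in part from the choice.

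The chromosomes did not share the unshared sites evenly. At matched length chromosome 4 held 7.07% of E669Q and 4.35% of wild-type intervals, a difference of 2.71 percentage points (1.86 to 3.58). Chromosome 3 held 6.56% and 5.16% (1.40 points, 0.530 to 2.28) and chromosome 15 2.09% and 1.46% (0.629 points, 0.139 to 1.13). On the wild-type side, chromosome 17 held 2.39% of E669Q and 4.03% of wild-type intervals, a difference of −1.64 points (−2.30 to −0.984). Chromosomes 5 and 11 followed with −1.15 (−2.02 to −0.283) and −0.953 points (−1.79 to −0.114). The intervals of these 6 chromosomes, out of 23, exclude 0, without adjustment for looking at 23.

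Local background differed along with the interval numbers. At shared intervals the log2 ratio of E669Q to wild-type background, less its median over all shared intervals, was 0.41 on chromosome 4, 0.43 on chromosome 15, 0.33 on chromosome 12 and 0.18 on chromosome 3. It was −0.22 on chromosome 17. Across the 23 chromosomes this background ratio and the log2 ratio of interval numbers had a Pearson's r of 0.88, and 0.82 over the 20 other than 4, 12 and 15. Both quantities come from the same 2 libraries, and the background window takes in the site itself, so they are not independent. Copies of a chromosome and accessibility cannot be told apart in them.

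Part of this was also seen between the lines without CPT. Under DMSO the intervals of chromosomes 4, 12, 15 and 19 excluded 0 towards E669Q and those of 5 and X towards wild-type SLFN11, so those of 4, 15 and 5 did so in both treatments and those of 3, 11 and 17 did so with CPT but not with DMSO. The largest DMSO difference was on chromosome 19 (1.51 points, background ratio 0.34). With DMSO the background ratio was 0.29 on chromosome 4, 0.47 on chromosome 15 and 0.42 on chromosome 12, and its values correlated with those under CPT at r = 0.85 over 23 chromosomes. Chromosomes 4, 12 and 15 held 1.40, 1.19 and 0.899 points more of the E669Q than of the wild-type list under DMSO. Within these 3 chromosomes 405 of 723 E669Q intervals at matched length were E669Q only (56.0%, 52.3 to 59.7), against 1898 of 4839 elsewhere (39.2%). For wild-type intervals the shares were 37.0% and 41.1%. Leaving these chromosomes out moved the shared part at matched length from 58.6% to 59.4%.

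**Figure D5:**
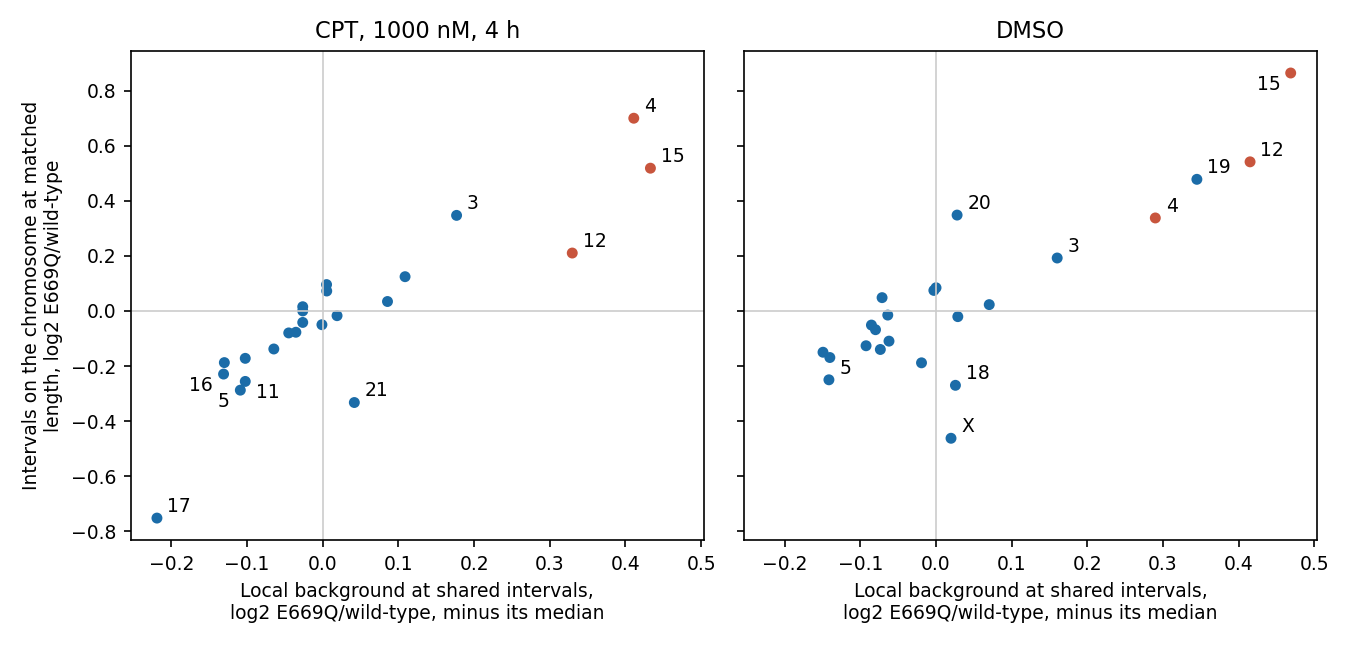
Each point is 1 of 23 chromosomes, with the log2 ratio of E669Q to wild-type local background at shared intervals, less its median (x axis), against the log2 ratio of interval numbers at matched length (y axis), for CPT (left) and DMSO (right). Chromosomes 4, 12 and 15 (red) sit at the upper right in both panels, with background ratios of 0.29 to 0.47, and chromosome 17 sits at the lower left under CPT alone.

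A few chromosomes differed between the treatments. The E669Q minus wild-type difference was 1.31 points larger with CPT than with DMSO on chromosome 4 (0.0774 to 2.55) and 1.10 points larger on X (0.228 to 1.97). The change was −1.31 points on chromosome 17 (−2.19 to −0.438) and −1.37 points on chromosome 19 (−2.55 to −0.185), and on the other 19 chromosomes its interval included 0. On chromosome 19 the 2 lines differed by 1.51 points with DMSO and by 0.144 points with CPT. On chromosome 17 they differed by −0.324 points with DMSO and by −1.64 with CPT, and the background ratio there went from −0.02 to −0.22.

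Within chromosomes, the lines differed over stretches of 10 Mb. On chromosome 19 the E669Q list held more intervals in the first 10 Mb (109 against 87) and fewer between 50 and 60 Mb (29 against 57). Between 40 and 50 Mb of chromosome 17 it held 23 against 49, and between 20 and 30 Mb of chromosome 6 it held 20 against 41. With DMSO the last pair were 22 against 24 and 44 against 46. The stretches of chromosome 19 were 103 against 62 and 25 against 37 with DMSO, in the same directions as with CPT. Between 140 and 150 Mb of chromosome 4 E669Q held 30 against 12 with CPT and 26 against 22 with DMSO. These stretches had some of the largest CPT differences, so a smaller DMSO difference follows in part from the choice. The background ratio was −0.51 at 50 to 60 Mb of chromosome 19 and 0.59 at 140 to 150 Mb of chromosome 4. Over the 87 bins of 312 with at least 20 shared intervals, background and interval ratios had a Pearson's r of 0.67.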

How the data were processed

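The members of the comparison, the 150 bp limit, the strength classes and the 10 Mb bins were chosen with earlier results of these data known. The files were 1 peak list per library (6 libraries, 1 per group), with no pooling. Per the submitters' processing notes the build was hg19 and the tools were MACS2 2.1.2, Picard 2.9.2, SAMtools 1.8, Bowtie2 2.2.6 and Trimmomatic 0.39, with no role or settings stated. Read shifting for the transposase, duplicate handling and read numbers are not given in the sources used here. Per deposited peak the authors gave a fold enrichment, which is a ratio over local background, a −log10 p-value, a −log10 q-value and a score. The score equalled 10 times the −log10 q, rounded down, in each deposited list, and the lowest −log10 q was 2.00 to 2.01.

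Entries with the same chromosome, start and end were 1 interval, kept with its strongest summit. Whole summit pileups and local backgrounds were recovered from fold and −log10 p, assuming a pseudocount of 1, for 98.6% to 99.2% of the entries of a list (tolerance 0.001 in −log10 p). The lowest background over its step, 1 fragment in 10 kb, gave relative depth. The expected share at another depth came from the binomial distribution. Matched length means the 5562 strongest intervals by −log10 p. The fold, p and q are the authors' own values.

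Named regions followed a rule: by −log10 p, at least 150 bp wide, the 8 strongest wild-type-only and E669Q-only intervals, the 5 in wild-type CPT alone, the 5 in every library but wild-type CPT, the 4 largest rank changes each way and the 3 strongest shared, plus the 2 strongest under 150 bp of each unshared set. Planned gene and promoter lists and cell type markers were not analysed here, since no hg19 annotation was used, so the K562 label was not checked. Alternatives covered the overlap rule, the q limit, width, summits, list length and depth ratio. Leaving out chromosomes 4, 12 and 15, and the other depth ratio for counts within reach, were chosen after seeing the data. Scripts were tested on simulated data. The software was bedtools 2.31.1 and Python 3.11.15 with scipy 1.17.1, pandas 2.3.3, numpy 2.4.6 and matplotlib 3.10.9.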

Additional observations from a re-analysis of the deposited data

Results flagged for a closer look

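The number of listed intervals differed between the lines in opposite directions in the 2 treatments. E669Q had 0.718 times as many intervals as wild-type SLFN11 with DMSO (8365 against 11651) and 2.22 times as many with CPT (12337 against 5562). Relative depth moved the same way, at 1.33 against 1.72 with DMSO and 2.22 against 1.09 with CPT, and its part in the counts was not tested. With 1 library per group the difference itself was not tested either.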

How the results depend on the processing

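No paired analysis was possible because each group holds 1 library and the result comes from no test; for the same reason no replicate could be left out. The shared part of the wild-type list (84.8%) was 52.8% with 50% reciprocal overlap, 87.5% counting intervals within 200 bp, 86.0% at a −log10 q of 5 or more, 82.7% at 150 bp or wider, 77.6% by summit and 96.1% for its 2000 strongest. For the E669Q list (38.3%) the same settings gave 23.8%, 40.2%, 27.9%, 39.9% and 35.0%; its strongest 5562 gave 58.6%, and leaving out chromosomes 4, 12 and 15 gave 40.1%. At matched length (58.6%), reciprocal overlap gave 38.6%, the q limit 51.2%, summits 56.6%, ranking by fold 55.1% and the 2000 strongest 48.3%. Wild-type-only intervals absent from both E669Q lists (76.6%) became 68.9% with 4 lists at matched length and 73.1% at 150 bp or wider. E669Q-only intervals absent from both wild-type lists (49.2%) became 46.5% within 200 bp, 62.4% at matched length and 47.8% without chromosomes 4, 12 and 15. The found over expected ratio (0.695) was 0.566 with the depth ratio from median pileups and 0.663 at 150 bp or wider. With that depth ratio the E669Q intervals within reach and absent went from 138 to 217 and the wild-type ones from 128 to 50. The cause of these changes was not tested. Summit pileups of 8 to 11 fragments at the median limit what a missing interval can show.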
